A study of Mus musculus with 15 samples.

Results

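The genes described here encode 7 mitochondrial proteins known as substrates of SIRT3: Sod2, Idh2, Glud1, Acss1, Aldh2, Ppif and Opa1. They were chosen by gene symbol from knowledge of the proteins, and a probe set counted as a member if its only platform symbol was one of these. Each gene had 1 probe set, none shared a probe set with another gene, and the 7 were taken from 35556 probe sets in all. All 7 passed the filter on low signal that left 12056 genes for testing. RNA came from the calf (gastrocnemius, mostly fast fibres) of C57BL/6 males aged 12 months. The design had 3 wildtype mice on the control diet, 4 wildtype mice on calorie restriction (CR), 4 Sirt3 knockout mice on the control diet and 4 Sirt3 knockout mice on CR, with 1 mouse and 1 Affymetrix array each. The sources used here do not give how much food was withheld, for how long, or how the Sirt3 allele was made. Values are log2 RMA intensities, on which a difference of 1 is a doubling, and the number of arrays limits the precision of every comparison.

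SIRT3 is an NAD-dependent enzyme of the mitochondrial matrix that removes acetyl groups from lysines of other proteins, and CR is known to raise its activity in several tissues. Removal of the acetyl group is known to activate SOD2, IDH2, GLUD1 and ACSS1, to restrain cyclophilin D, the product of Ppif, and to promote the fusion activity of OPA1. These are changes in the proteins. An array measures only the transcripts, so the question here is whether the messages for the substrates differed with genotype or diet, and acetylation itself was not measured.

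No difference of the 7 transcripts between diets or genotypes passed the threshold, an adjusted p under 0.05 in limma over all 12056 genes, in any of 7 contrasts. At an unadjusted limma p under 0.05 the count was also 0 of 7 in each contrast, where 5.71% to 20.1% of all genes had one. Glud1 averaged over the genotypes had the smallest adjusted p of the 49 differences, at 11.5% higher on CR (95% interval -0.764% to 25.3%, limma adjusted p = 0.276). Within a genotype, the smallest p for CR were those of Glud1 in wildtype mice, 18.2% higher on CR (95% interval -0.390% to 40.2%), and Acss1 in knockout mice, 29.8% higher on CR (95% interval -4.14% to 75.7%). Sod2 and Opa1 had the narrowest intervals. For Opa1 the change with CR averaged over the genotypes was -0.469% (95% interval -8.37% to 8.11%), and for Sod2 it was -5.05% (95% interval -12.7% to 3.28%). The Sod2 difference was further below 0 without some arrays that carried transcripts of other tissues, as given below. For Idh2 and Acss1 the intervals were wide: averaged over genotypes they ran from -24.2% to 14.1% and from -14.3% to 33.8%.

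As background, 0.124% of all genes passed for CR in wildtype mice, 0.0664% for CR in knockout mice (0.00829% higher and 0.0581% lower) and 1.07% for CR averaged over genotypes. For knockout against wildtype the share was 0% on the control diet, 0.0166% on CR and 0% averaged over diets, and for the difference between the genotypes' CR responses it was 0%. A count of 0 of 7 is therefore near the background in each contrast. The 4 comparisons of a pair of groups share arrays with each other, so they are not independent.

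The labels were checked on the Sirt3 transcript, which was lower in every knockout array than in any wildtype array. Where its probes lie relative to the deleted part is not known, which limits this check. The transcript lay at 6.38 to 6.68 in wildtype and at 4.94 to 6.19 in knockout muscle, with a difference averaged over diets of -0.96 (SE 0.18, limma adjusted p = 0.318). Fast fibre markers were high on all arrays, with Atp2a1 at 13.16 to 13.33 and Ckm at 13.11 to 13.30. Some arrays also carried transcripts of other tissues. Relative to the median array, the mean of 10 male germ cell markers (7 of which passed the filter) was 4.52 in wildtype control replicate 3, 3.97 in knockout control replicate 1 and at most 0.938 in the other 13. That of 8 pancreatic acinar markers was 7.2 in wildtype control replicate 2, 0.72 in wildtype control replicate 3 and 0.58 in wildtype control replicate 1. On the arrays of the other groups it was at most 0.096. That of 11 liver markers was 2.90 in wildtype CR replicate 4, 1.76 in knockout control replicate 2 and 1.70 in wildtype control replicate 1. Results are therefore also given after dropping the 2 germ cell arrays, or these 2 plus the acinar array and the array with the highest liver markers (4 in all). Each of the 3 wildtype control arrays thus had raised markers of another tissue. The second choice keeps wildtype control replicate 1, with raised liver and slightly raised acinar markers, and knockout control replicate 2, with raised liver markers. It leaves wildtype control replicate 1 as the only wildtype control array, so the errors and p-values of its fits assume that this lone array varies like the other groups.

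Sequence around the start of each gene was available in the RefSeq promoter table of GRCm38.p6 for 6 of the 7 members. Each window runs from 250 bases before to 50 bases after the start. Those of Sod2, Idh2 and Acss1 are shown because these transcripts varied together from mouse to mouse, and that of Opa1 because it alone held a match other than a GC box. Capitals mark matches on either strand.

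Sod2, chr17:13007589-13007888, plus strand: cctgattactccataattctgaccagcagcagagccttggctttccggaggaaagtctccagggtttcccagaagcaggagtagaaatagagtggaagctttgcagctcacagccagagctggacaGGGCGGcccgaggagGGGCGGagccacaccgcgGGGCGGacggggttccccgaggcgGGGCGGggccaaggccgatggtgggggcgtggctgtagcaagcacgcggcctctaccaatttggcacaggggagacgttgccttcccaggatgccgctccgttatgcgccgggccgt
Idh2, chr7:80115301-80115600, minus strand: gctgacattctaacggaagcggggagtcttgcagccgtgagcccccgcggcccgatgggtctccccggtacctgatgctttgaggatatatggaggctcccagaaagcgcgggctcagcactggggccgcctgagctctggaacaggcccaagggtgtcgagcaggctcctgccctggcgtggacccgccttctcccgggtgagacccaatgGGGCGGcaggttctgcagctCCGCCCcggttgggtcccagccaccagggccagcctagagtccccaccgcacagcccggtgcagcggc
Acss1, chr2:150668191-150668490, minus strand: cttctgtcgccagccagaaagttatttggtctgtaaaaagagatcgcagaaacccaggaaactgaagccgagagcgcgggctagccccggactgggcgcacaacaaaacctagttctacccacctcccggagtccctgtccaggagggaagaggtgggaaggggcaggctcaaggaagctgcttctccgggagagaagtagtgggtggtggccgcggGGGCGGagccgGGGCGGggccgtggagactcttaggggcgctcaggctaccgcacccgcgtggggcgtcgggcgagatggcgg
Opa1, chr16:29579084-29579383, plus strand: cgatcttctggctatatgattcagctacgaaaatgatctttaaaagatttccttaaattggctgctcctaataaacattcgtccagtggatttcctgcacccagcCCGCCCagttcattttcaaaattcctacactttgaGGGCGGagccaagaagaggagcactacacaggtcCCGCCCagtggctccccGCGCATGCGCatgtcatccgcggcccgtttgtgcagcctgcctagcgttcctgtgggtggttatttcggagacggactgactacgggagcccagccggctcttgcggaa

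The letters searched, on both strands, were GGGCGG (GC box), TCAAGGTCA (element of oestrogen-related receptors), TGACNNNGC (antioxidant response element) and TGACGTCA (cAMP response element), with the NRF1 palindrome and the PPAR direct repeat. The GC box occurred 4 times in the window of Sod2, 3 times in those of Glud1 and Opa1, 2 times in those of Idh2 and Acss1 and 1 time in that of Ppif. It was present in 35.7% of the 32851 windows of the table. The NRF1 letters were found in the Opa1 window, 59 bases before the start, and in 0.971% of all windows. The other motifs had no match in the 6 windows, against 12.4% of all windows for the antioxidant element, 1.79% for the cAMP element, 0.423% for the receptor element and 0.0396% for the direct repeat. No match of one motif overlapped a match of another. The windows were richer in G and C than the median window of 52.7%, at 53.3% for Opa1, 63.0% for Ppif, 64.3% for Sod2 and Acss1, 68.3% for Idh2 and 81.0% for Glud1. The Idh2 window lies inside the span the annotation gives the gene, chr7:80094845-80118608, as does the Ppif window, chr14:25693920-25694219, in chr14:25693574-25700468. The matches describe the letters and say nothing of which factors bind.

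Sod2 encodes manganese superoxide dismutase, which turns superoxide in the matrix into hydrogen peroxide. Its values were 10.79, 10.67 and 10.62 in wildtype control mice and 10.56, 10.66, 10.67 and 10.49 in wildtype mice on CR. In knockout mice they were 10.53, 10.71, 10.90 and 10.78 on the control diet and 10.72, 10.67, 10.62 and 10.72 on CR. All 4 groups overlapped, and neighbours in the order of the means (knockout control 10.73, wildtype control 10.70, knockout CR 10.68, wildtype CR 10.59) did not differ beyond their spread. The whole range over 15 mice was 0.42. The CR difference was -0.10 in wildtype mice (SE 0.08, limma adjusted p = 0.595), and in knockout mice it was -0.05 (SE 0.08, limma adjusted p = 0.823). Averaged over the genotypes it was -0.07 (95% interval -0.20 to 0.05, limma adjusted p = 0.454). Without the 2 germ cell arrays this average was -0.13 (95% interval -0.24 to -0.014, limma adjusted p = 0.274). With all 4 arrays dropped it was -0.14. Knockout minus wildtype averaged over diets was 0.06 (SE 0.06, limma adjusted p = 0.839).

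Idh2 encodes the mitochondrial isocitrate dehydrogenase that makes NADPH, used to keep glutathione reduced. Wildtype control mice had 10.62, 10.08 and 9.87 and wildtype mice on CR 9.71, 10.26, 10.38 and 9.83. Knockout control mice had 9.86, 10.31, 10.5 and 10.58, while the 4 knockout mice on CR lay close together at 10.21, 10.27, 10.26 and 10.26. The spread differed between groups, with an SD of 0.39, 0.33 and 0.32 in the first 3 groups and 0.026 in the last. Each group overlapped each other group, and the order of the means was knockout control (10.31), knockout CR (10.25), wildtype control (10.19) and wildtype CR (10.04). The CR difference was -0.15 in wildtype mice (SE 0.20, limma adjusted p = 0.757), and in knockout mice it was -0.06 (SE 0.19, limma adjusted p = 0.918). Averaged over the genotypes it was -0.10 with all arrays, -0.26 once the 2 germ cell arrays were dropped and -0.36 with all 4 dropped, with limma adjusted p of 0.676, 0.331 and 0.329. The last value sets the CR arrays against wildtype control replicate 1 alone in the wildtype, which had the highest Idh2 of all, and without that array the difference over the other 14 was 0.0033.

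**Figure D1:**
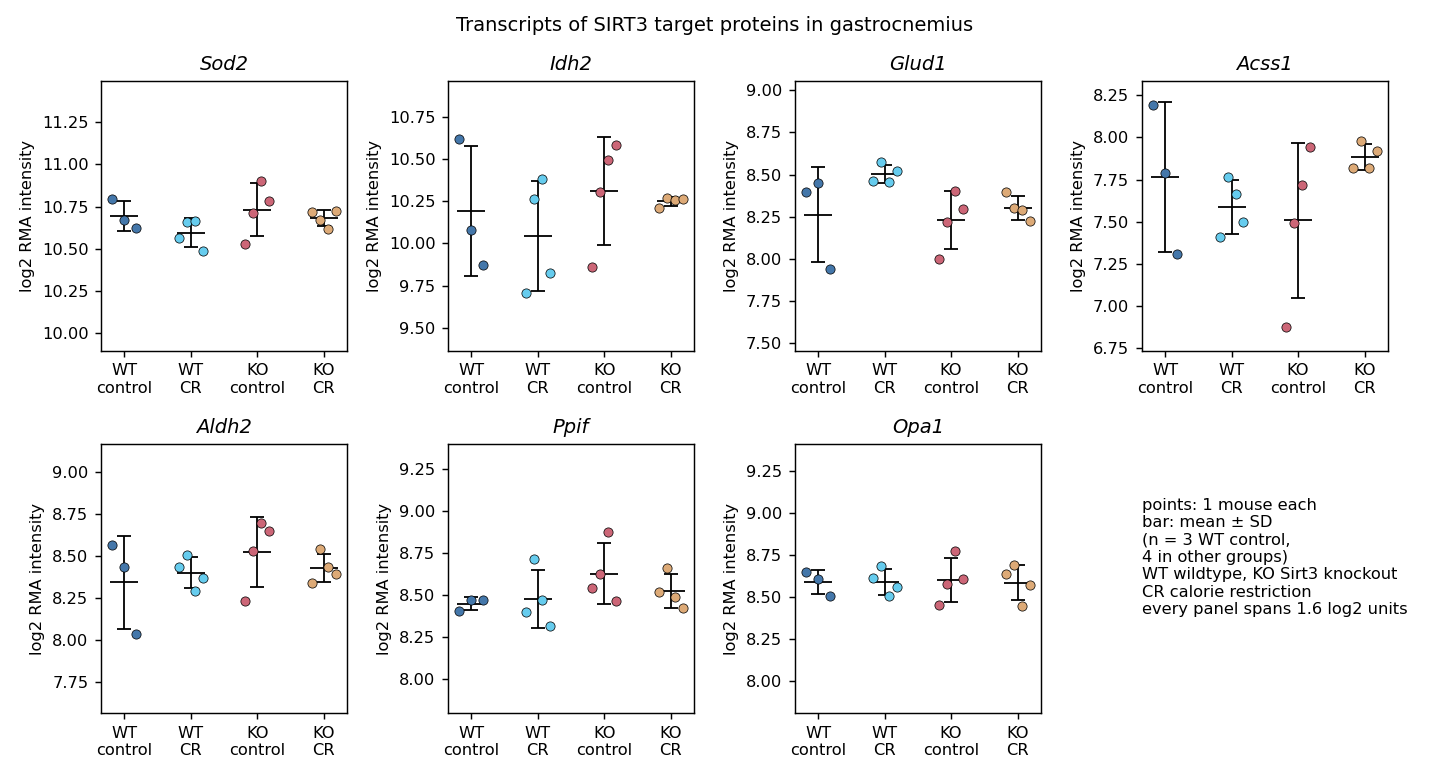
Log2 RMA intensity of the 7 genes in the 4 groups, 1 point per mouse, with the mean and SD as bars (n = 3 for wildtype control, 4 for each other group) and the same span of log2 units in every panel. The groups overlap in every panel except that Glud1 in wildtype mice on CR lies above the 3 other groups, and Acss1 in knockout mice on CR lies above wildtype mice on CR.

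Glud1 encodes glutamate dehydrogenase, which converts glutamate to 2-oxoglutarate and so feeds amino acid carbon into the TCA cycle. Values were 8.40, 8.45 and 7.94 in wildtype control mice and 8.46, 8.57, 8.46 and 8.52 in wildtype mice on CR. Knockout mice had 8.0, 8.22, 8.40 and 8.29 on the control diet and 8.39, 8.30, 8.29 and 8.22 on CR. All 4 wildtype CR mice lay above the 3 wildtype control mice, though by as little as 8.46 against 8.45, and above all 8 knockout mice, whose highest values were 8.40 on the control diet and 8.39 on CR. Of all genes, 12.5% had no overlap between the diets in wildtype mice and 4.6% had none between the genotypes on CR. Between the diets in knockout mice, where Glud1 overlapped, 6.98% had none. The share of genes separating wildtype CR from knockout control mice, or from the 3 other groups at once, was not computed. The separations of Glud1 all rest on the same 4 wildtype CR arrays.

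The CR difference of Glud1 in wildtype mice was 0.24 (SE 0.12, limma adjusted p = 0.390), and without the 2 germ cell arrays it was 0.08 (SE 0.07, limma adjusted p = 0.785). Wildtype control replicate 3 and knockout control replicate 1, the 2 arrays with the strong germ cell markers, had the lowest Glud1 values of all 15. The part of the other tissue in these values was not tested beyond leaving the arrays out. Knockout minus wildtype on CR was -0.20 (SE 0.11, limma adjusted p = 0.864) with all arrays and -0.20 (limma adjusted p = 0.579) without the 4. In the order of the means, wildtype CR (8.50) stood first, and knockout CR (8.30), wildtype control (8.26) and knockout control (8.23) did not differ beyond their spread.

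Acss1 encodes the mitochondrial acetyl-CoA synthetase, which lets muscle burn acetate. Wildtype mice had 8.19, 7.79 and 7.31 on the control diet and 7.41, 7.76, 7.67 and 7.50 on CR. Knockout mice had 6.88, 7.49, 7.72 and 7.94 on the control diet and 7.82, 7.98, 7.82 and 7.92 on CR. The 4 knockout CR mice all lay above the 4 wildtype CR mice, the lowest at 7.82 and the highest wildtype value at 7.76 (7.765 before rounding), while the control diet groups overlapped. The share of all genes without overlap in this comparison is the 4.6% given above. Neighbours in the order of the means, knockout CR (7.88), wildtype control (7.76), wildtype CR (7.58) and knockout control (7.51), overlapped.

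The CR difference of Acss1 was -0.18 in wildtype mice (SE 0.22, limma adjusted p = 0.728), and in knockout mice it was 0.38 (SE 0.20, limma adjusted p = 0.484). The difference between these responses was 0.56 (SE 0.30, 95% interval -0.09 to 1.2, limma adjusted p = 0.863). Without the 2 germ cell arrays it was 0.57 (SE 0.18, 95% interval 0.18 to 0.97, limma adjusted p = 0.634), and with all 4 dropped it was 0.75 (SE 0.20, limma adjusted p = 0.448), with the wildtype control array of the highest Acss1 as the only one of its group. Leaving out single arrays moved this difference both ways. It fell to 0.34 without wildtype control replicate 1 (limma adjusted p = 0.863) and to 0.34 without knockout control replicate 1 (limma adjusted p = 0.706). Without wildtype control replicate 3 it rose to 0.78 (limma adjusted p = 0.713). The responses themselves moved to -0.41 in wildtype and 0.17 in knockout mice without the 2 arrays. The lowest Acss1 values of all, 6.88 and 7.31, were on these 2 arrays. Knockout minus wildtype on CR, whose groups hold neither of them, was 0.30 (SE 0.20, limma adjusted p = 0.904). Its error is pooled over all groups, and without the 2 arrays the same difference had an SE of 0.11 and a 95% interval of 0.06 to 0.54 (limma adjusted p = 0.551).

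Aldh2 encodes the mitochondrial aldehyde dehydrogenase, which clears acetaldehyde and the reactive aldehydes of lipid peroxidation. It lay at 8.04 to 8.56 in wildtype control, 8.29 to 8.50 in wildtype CR, 8.23 to 8.70 in knockout control and 8.34 to 8.54 in knockout CR mice. These ranges overlapped, with means of 8.34, 8.40, 8.53 and 8.43 in the same order. Averaged over the genotypes the CR difference was -0.02 (SE 0.08, limma adjusted p = 0.906). Without the 2 germ cell arrays it was -0.15 (SE 0.06, limma adjusted p = 0.233). The lowest values in the wildtype and in the knockout mice, 8.04 and 8.23, were again those of the 2 germ cell arrays. Knockout minus wildtype averaged over diets was 0.10 (SE 0.08, limma adjusted p = 0.817).

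Ppif encodes cyclophilin D, the matrix regulator of the permeability transition pore. It lay at 8.41 to 8.47 in wildtype control, 8.32 to 8.72 in wildtype CR, 8.46 to 8.88 in knockout control and 8.42 to 8.66 in knockout CR mice. The means were 8.45, 8.48, 8.63 and 8.52, and neighbours in their order overlapped. Knockout minus wildtype was 0.18 (SE 0.10, limma adjusted p = 0.783) on the control diet and 0.05 (SE 0.10, limma adjusted p = 0.999) on CR. Leaving out knockout control replicate 3, which had the highest value, the former was 0.09.

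Opa1 encodes the dynamin-like GTPase that fuses the inner membrane and shapes the cristae. It varied least over the 15 mice, from 8.45 to 8.77. The group means were 8.59 in wildtype control, 8.59 in wildtype CR, 8.60 in knockout control and 8.59 in knockout CR mice, with SDs of 0.072 to 0.13. Every 95% interval of a difference between a pair of groups lay between -0.18 and 0.19. The knockout difference averaged over diets was 0.0045 (SE 0.06, limma adjusted p = 0.991).

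**Figure D2:**
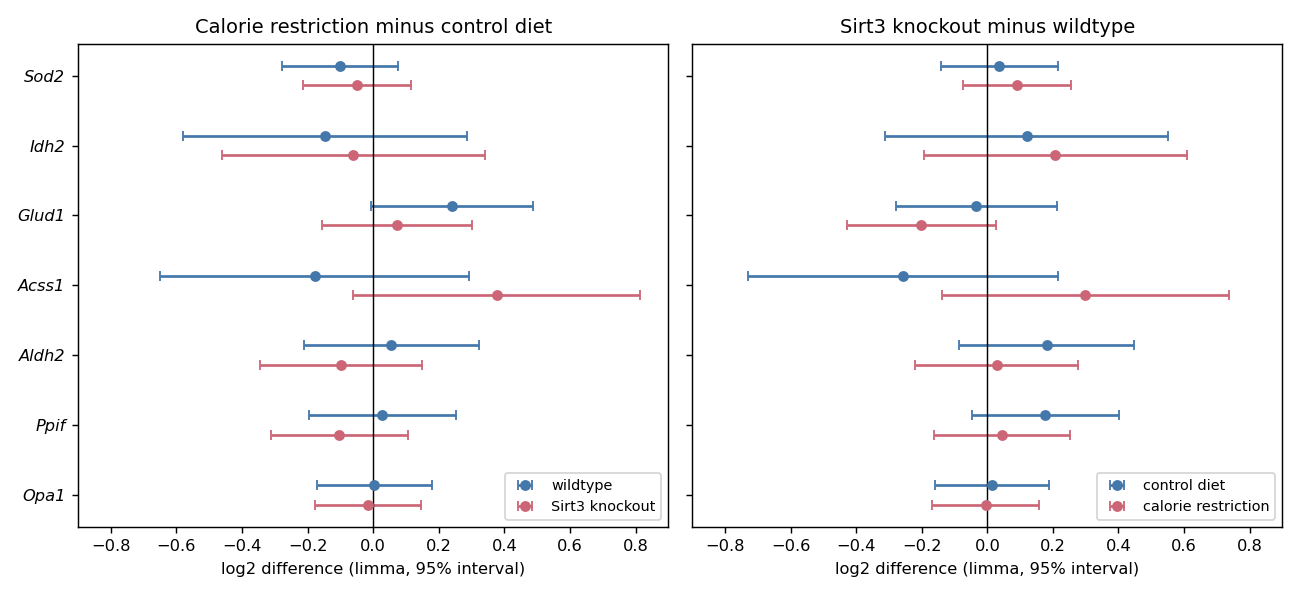
Log2 differences of the 7 genes with their 95% intervals from limma, for calorie restriction minus control diet in each genotype (left) and Sirt3 knockout minus wildtype on each diet (right). Every interval includes 0, those of Opa1 and Sod2 are the narrowest and those of Acss1 and Idh2 the widest.

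The median of their CR differences was 0.0032 in wildtype mice, beside 0.04 over all genes, and -0.05 in knockout mice, beside 0.01. Without the 2 germ cell arrays these medians were -0.10 and -0.12, beside 0.02 and 0.0020 over all genes. Averaged over genotypes the median CR difference was -0.02 with all arrays and -0.12 without these 2, beside 0.03 and 0.01. Of the 7 members, 2 lay above 0 in the former and 1 in the latter. The median of knockout minus wildtype was 0.04 on the control diet and 0.05 on CR, beside 0.02 and -0.01 over all genes. Averaged over diets, 6 of 7 lay above 0 and Glud1 lay below it, with a median of 0.06 beside 0.0067 over all genes. In the lists of related genes described below, 63 of 86 tested genes lay above 0 in the same contrast. The share of all genes above 0 was not computed. Without the 4 arrays 3 of the 7 members lay above 0, with a median of -0.0068. In bulk muscle a lower level per cell and a smaller share of the cells that express a gene cannot be told apart.

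The mice differed more from each other than the groups did. Within groups the SD of Acss1 was 0.32 and that of Idh2 was 0.29, larger than in 93.2% and 91.8% of genes, where the median gene had 0.13. Opa1 and Sod2, with an SD of 0.10 each, varied less than most genes (larger than in 23.9% and 25.9%). Wildtype control replicate 1 was highest for Idh2 and Acss1. Knockout control replicate 3 was above the mean of all arrays for 7 of 7 members and highest for 4 of them, namely Sod2, Aldh2, Ppif and Opa1. Wildtype control replicate 3 was below the mean for all 7, and knockout control replicate 1 was among the lowest 2 arrays for 5 of them.

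**Figure D3:**
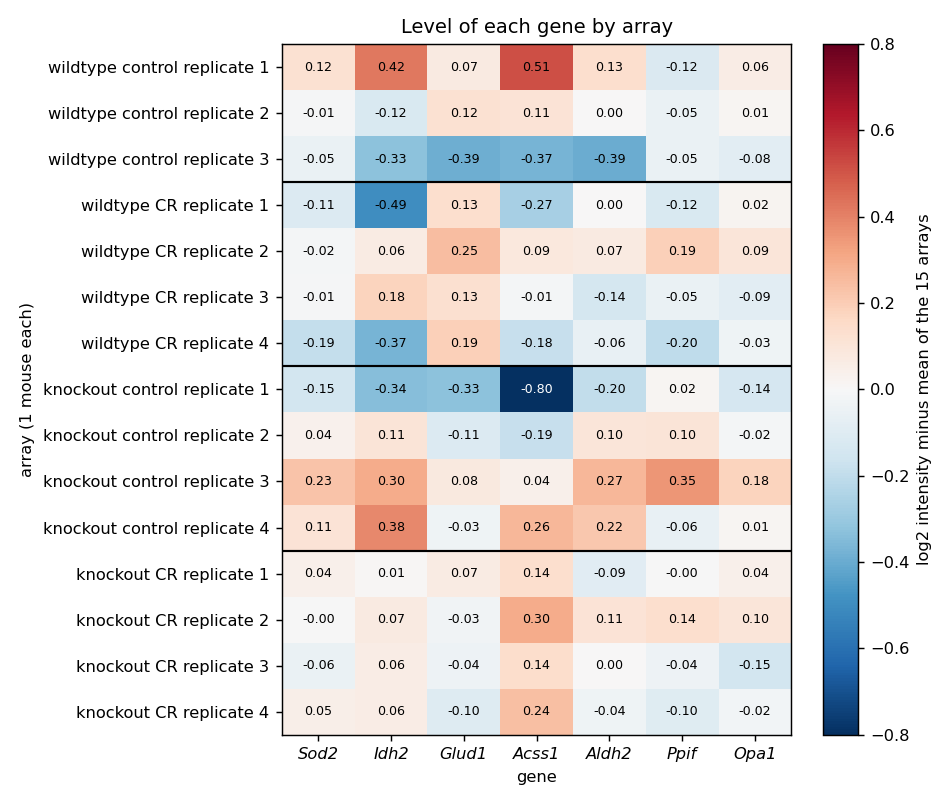
Level of the 7 genes on each of the 15 arrays, as log2 intensity minus the gene's mean over all arrays, with black lines between the groups (red higher, blue lower). Wildtype control replicate 3 and knockout control replicate 1 are low for Idh2, Glud1, Acss1 and Aldh2, and knockout control replicate 3 is above the mean for all 7.

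Over the 15 arrays, all 21 pairs of members correlated above 0, and 7 pairs passed a permutation test of Pearson's r after Benjamini-Hochberg adjustment over the 21. Sod2 and Idh2 had the highest r, 0.850 (permutation p = 7e-05, adjusted p = 0.00147), with a Spearman rho of 0.807 (permutation p = 0.0004, adjusted p = 0.0084), and r was 0.870 without the 2 arrays farthest from the median of Sod2. Idh2 and Acss1 had an r of 0.743 (permutation p = 0.00118, adjusted p = 0.0124) and a rho of 0.600 (permutation p = 0.0207, adjusted p = 0.0725), with r at 0.758 without the 2 farthest arrays. The other 5 pairs past the threshold were Aldh2 with Opa1, Idh2 and Sod2 (r of 0.691, 0.655 and 0.633), and Sod2 with Opa1 and Acss1 (0.633 and 0.622). On ranks only the pair of Sod2 and Idh2 passed. Leaving out the 2 arrays farthest from the median of the first gene named, r was 0.600 for Aldh2 with Opa1, 0.807 for Idh2 with Aldh2, 0.571 for Sod2 with Aldh2, 0.497 for Sod2 with Opa1 and 0.806 for Sod2 with Acss1. Correlations above 0 were common among all genes: for Glud1, Idh2 with an r of 0.21 ranked 6037 of 12055 genes, and Sod2 with 0.11 ranked 7238. Ranks of pairs past the threshold differed widely. For Idh2, Sod2 ranked 8 and Acss1 ranked 53. Sod2 ranked 611 for Acss1 and 623 for Aldh2, so many other genes correlated with these as highly. The share of all gene pairs above 0 or past the threshold was not computed. The lowest r of all pairs were those of Ppif with Acss1 (0.025) and with Glud1 (0.028).

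These correlations pool the 4 groups, so they were also taken on deviations from the group means, where 15 of 21 pairs passed on r and 8 on rho. The p-values there treat the 15 deviations as free, although 4 means were removed, and are too small. Idh2 and Acss1 then had an r of 0.896 and a rho of 0.925, and Sod2 and Idh2 an r of 0.833. Without the 4 arrays dropped for other tissues, 0 of 21 pairs passed on r or on rho over 11 arrays. The arrays kept include wildtype control replicate 1 and knockout control replicate 2, with liver markers at 1.70 and 1.76. Over these 11 arrays 3 pairs had r over 0.65, namely Sod2 with Idh2 (0.776, permutation p = 0.00774, adjusted p = 0.161), Idh2 with Acss1 (0.663) and Ppif with Opa1 (0.652). At that number, Idh2 with Acss1 was 0.023 after leaving out the 2 arrays farthest from the median of Idh2, so it rests on those arrays. Likewise, Ppif with Opa1 fell to 0.223 without the 2 arrays farthest from the median of Ppif. For Sod2 with Idh2 r was 0.752 without the 2 arrays farthest from the median of Sod2.

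Slow fibres are rich in mitochondria, and the level of slow fibre genes differed between the arrays. The mean of 11 slow fibre genes (among them Tpm3 and Myoz2) ranged from -0.71 on wildtype CR replicate 4 to 1.07 on wildtype CR replicate 3, relative to the median array. Its range was -0.21 to 0.77 in wildtype control, -0.22 to 0.50 in knockout control and -0.36 to 0.15 in knockout CR mice. Of 7 correlations with this mean none passed after adjustment. Idh2 was nearest, with r at 0.633 (permutation p = 0.0109, adjusted p = 0.0764), rho at 0.650 (permutation p = 0.0101, adjusted p = 0.0708) and r at 0.569 without the 2 arrays farthest on the slow fibre mean. On deviations from the group means r was 0.734 for Idh2 and 0.542 for Acss1. For Acss1 and Sod2 the pooled r was 0.406 and 0.414 (permutation p = 0.133 and 0.124), with adjusted p of 0.309 for both. For Ppif and Opa1 it was -0.087 and -0.091.

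**Figure D4:**
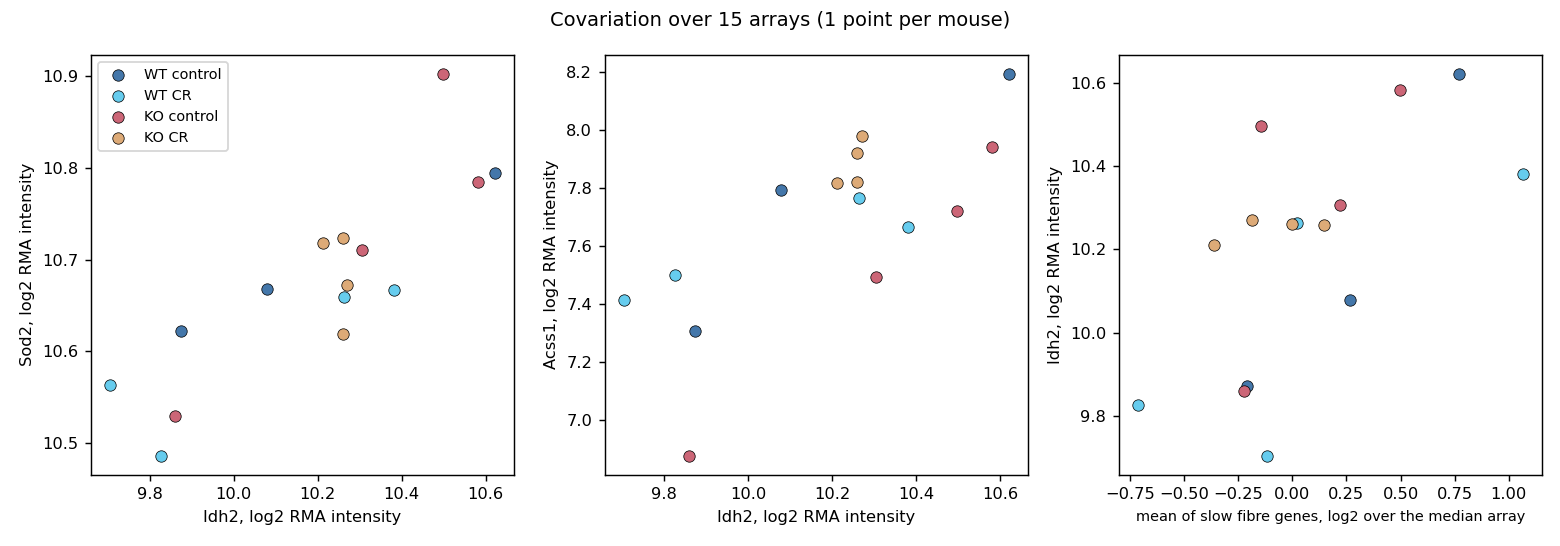
Sod2 against Idh2, Acss1 against Idh2, and Idh2 against the mean of 11 slow fibre genes, 1 point per mouse and colours by group, all on log2 scales. Sod2 and Idh2 run together over the 15 mice (r 0.850), Acss1 and Idh2 less tightly (r 0.743), and the 4 knockout CR mice sit close together on Idh2.

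For each member the 3 genes with the most similar pattern were found among 12055 others by Pearson's r over the 15 arrays, a description with no test since the highest of many were taken. For Sod2 they were Phyhd1 (0.932), Hadha (0.911), the alpha subunit of the mitochondrial trifunctional protein of fatty acid oxidation, and Rbms2 (0.911). For Idh2 they were again Phyhd1 (0.910), then Fabp3 (0.897), the fatty acid binding protein of heart and oxidative muscle, and Ppara (0.881), a nuclear receptor for fatty acids. Sod2 was the gene ranked 8 for Idh2, and Idh2 the gene ranked 20 for Sod2.

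Acss1 was most like Fam102b (0.922), Xdh (0.898), which encodes xanthine dehydrogenase, and Acot2 (0.885), a mitochondrial acyl-CoA thioesterase. Glud1 was most like Mccc2 (0.915), a subunit of the leucine-degrading methylcrotonyl-CoA carboxylase, Setbp1 (0.904) and Thap12 (0.894). For Setbp1 the value was 0.691 without the 2 arrays farthest from the median of Glud1. Aldh2 was most like Tm7sf3 (0.902), Mrps24 (0.875), a mitochondrial ribosomal protein, and Kptn (0.874).

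Ppif was most like Uqcrc1 (0.912), a core subunit of respiratory complex III, Vegfb (0.893), an endothelial growth factor, and Txn2 (0.863), mitochondrial thioredoxin. Opa1 was most like Lrba (0.913), Pon3 (0.886) and Thoc2 (0.882).

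Genes around the members were taken from 8 lists, covering other reported SIRT3 substrates and the pathways of the 7 proteins, with 96 genes listed, 88 of them with a probe set and 86 tested. None passed the threshold in limma in any of the 7 contrasts. At an unadjusted limma p under 0.05 there were 8 of 86 for CR in wildtype mice, 5 for CR in knockout mice, 12 for CR averaged over genotypes and 4 for the difference between the responses. There were 6 for knockout against wildtype on the control diet, 3 on CR and 6 averaged over diets. As shares of 86 these ran from 3.49% to 14%, against 5.71% to 20.1% of all genes.

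Among 16 tested of 20 other reported substrates, all 16 lay above 0 for knockout minus wildtype on the control diet, with a median of 0.11 beside 0.02 over all genes. On CR 12 of 16 did, with a median of 0.04 beside -0.01. Dropping the 2 germ cell arrays gave a count of 16 again, with a median of 0.14, and dropping all 4 gave 13, with a median of 0.09. Mdh2, the mitochondrial malate dehydrogenase, had the smallest p of these for the genotypes averaged over diets, at 11.85 ± 0.07 (SD, n = 3) in wildtype control, 11.92 ± 0.04 (SD, n = 4) in wildtype CR, 12.01 ± 0.09 (SD, n = 4) in knockout control and 12.01 ± 0.04 (SD, n = 4) in knockout CR mice. Its difference was 0.13 (SE 0.04, limma adjusted p = 0.626). Hadha, which was also among the genes most like Sod2, had the smallest p for CR averaged over genotypes, with a difference of -0.24 (SE 0.08, limma adjusted p = 0.143). Values above 0 for knockout minus wildtype on the control diet were also frequent in other lists, and whether these substrates stood out was not tested. Over all 8 lists, the 16 included, 63 of 86 tested genes lay above 0 (median 0.08). The glutamate list had 8 of 9 (median 0.10) and the permeability transition list 7 of 11 (median 0.12). The superoxide and peroxide list had 5 of 11 (median -0.02). The share of all genes above 0 was not computed.

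In the partners of Sod2, 11 genes of superoxide and peroxide removal were tested, and the median CR difference averaged over genotypes was -0.02, beside 0.03 over all genes. Cat, catalase, stood at -0.28 (SE 0.10, limma adjusted p = 0.153). Txn2 was nearest for the genotypes, at 0.10 (SE 0.05, limma adjusted p = 0.690). Around Idh2, 9 genes of isocitrate and NADPH metabolism had a median of 0.03, with Aldh1l2 at 0.13 (SE 0.09) for CR, limma adjusted p of 0.416. This average joins opposite signs for Aldh1l2. Its CR difference was -0.14 in wildtype mice (SE 0.13, limma adjusted p = 0.640) and 0.39 in knockout mice (SE 0.12, limma adjusted p = 0.251). The difference between these responses was 0.53 (SE 0.18, limma adjusted p = 0.824). Idh3g, a subunit of the NAD-linked isocitrate dehydrogenase, stood at 0.09 (SE 0.05, limma adjusted p = 0.698) for the genotypes.

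Around Glud1, 9 genes of glutamate metabolism had a median CR difference of 0.06. Gpt2, the mitochondrial alanine aminotransferase, stood at 9.46 in wildtype control and 9.93 in wildtype CR mice and at 9.69 and 9.92 in knockout mice, an averaged difference of 0.35 (SE 0.14, limma adjusted p = 0.202). Got1, the cytosolic aspartate aminotransferase, stood at 0.16 (SE 0.08, limma adjusted p = 0.698) for the genotypes. Around Acss1, 12 genes of acetate and acetyl-CoA metabolism had a median of 0.02. Acss3 stood at 0.31 (SE 0.14, limma adjusted p = 0.226) for CR, and Acaca, the acetyl-CoA carboxylase of fatty acid synthesis, at 0.68 (SE 0.28, limma adjusted p = 0.645) for knockout minus wildtype.

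A list of 10 further aldehyde dehydrogenases, without Aldh1l2, had a median of 0.06 for CR, with Aldh16a1 at 0.08 (SE 0.04, limma adjusted p = 0.264) and, for the genotypes, Aldh1b1 at 0.13 (SE 0.05, limma adjusted p = 0.645). Aldh1b1 lay near the filter floor of 5.32, with means of 5.28 in wildtype control and 5.25 in wildtype CR mice. In knockout mice its means were 5.33 on the control diet and 5.48 on CR. Both its passing the filter and its genotype difference lean on the knockout CR group, so the difference cannot be read as an effect of genotype. Beside Ppif, 11 genes of the permeability transition and calcium uptake had a median of 0.03. Atp5o, the ATP synthase subunit at which cyclophilin D is known to bind, stood at 0.16 (SE 0.06, limma adjusted p = 0.161) for CR and 0.13 (SE 0.06, limma adjusted p = 0.690) for the genotypes. Beside Opa1, 14 genes of fusion, fission and cristae had a median of 0.02, with the fission factor Fis1 at 0.15 (SE 0.05, limma adjusted p = 0.153) for CR and the outer membrane fusion protein Mfn2 at 0.12 (SE 0.07, limma adjusted p = 0.715) for the genotypes.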

How the data were processed

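The authors deposited log2 intensities made with RMA, per the submitters' processing notes, with no version or log base named. The log2 scale was taken from the range of the values. No batch is named in the labels, so none was tested. Medians of the arrays ran from 5.40 to 5.48, no 2 arrays were identical, and the values were used as they are.

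The platform annotation gave 1 symbol to 21789 probe sets and several to 1621, which were dropped, while 12146 stay unnamed here. Of the probe sets of a gene, the brightest on average stood for it (19938 genes). A floor at the 40th percentile of listed probe sets (5.32) left 12056 genes. In R 4.3.3, limma 3.58.1 fitted a mean for each of the 4 groups to the 15 arrays, and each of 7 two-sided contrasts was adjusted by Benjamini-Hochberg over these genes. The fit was first tested on simulated data. Errors beside differences are moderated standard errors, and percent changes come from the log2 differences and their 95% intervals. Correlations used 100000 permutations in Python 3.11.15 with scipy 1.17.1, and figures matplotlib 3.10.9. Alternatives covered the filter, the choice of probe set, scaling, the prior, array weights, the replicate block and leaving out arrays.

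The members and the 17 gene lists, 9 of them markers of fibre types and other tissues, were chosen with earlier results of these data known. The genes named are the members, Sirt3, the 3 genes most like each member, up to 4 genes past the threshold per pathway list and contrast or, with none, the gene with the smallest p for CR and for genotype, each averaged, and the 2 highest genes of the marker lists described. The correlations with the slow fibre mean and the list medians without the 2 and the 4 arrays were added after the data were seen. The marker lists of adipocytes, macrophages, endothelium and tendon are given in the closing observations.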

Additional observations from a re-analysis of the deposited data

How the results depend on the processing

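None of the 49 differences of a member passed the limma threshold under any of 27 other settings, where 46 of 1323 values had an unadjusted p under 0.05 and the smallest adjusted p was 0.175. So the count of members called was 0 in every contrast and setting, the replicate block included. The replicate numbers showed no clear pairing of the mice: of 21 same-numbered pairs the correlation of deviations was over 0.1 in 7 (range -0.64 to 0.50), and 2 of 15 arrays correlated best with their own number. This check cannot exclude a pairing, since the deviations also hold the transcripts of other tissues on some arrays. With the replicate block, genes called over the whole table were 1 for CR in wildtype, 15 for CR in knockout and 36 for CR averaged, against 15, 8 and 129 without it.

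The sign was kept under every setting for 21 of the 49 differences and changed under at least 1 for the other 28. With array weights, Aldh2 at -0.036 for CR in wildtype, Opa1 at -0.016 for CR in wildtype, 9.0e-05 for the difference of the responses, -0.00093 for genotype on the control diet and -0.00088 for genotype averaged, Acss1 at -0.020 for CR averaged had the other sign. Without the 2 germ cell arrays, Aldh2 at -0.099 for CR in wildtype, Opa1 at -0.036 for CR in wildtype, Glud1 at -0.0042 for CR in knockout, Acss1 at -0.12 for CR averaged had the other sign. Without the 4 arrays, Aldh2 at -0.15 for CR in wildtype, Opa1 at -0.047 for CR in wildtype and -0.0068 for genotype averaged, Glud1 at -0.0042 for CR in knockout, Acss1 at -0.21 for CR averaged and -0.10 for genotype averaged, Idh2 at -0.16 for genotype on the control diet and -0.013 for genotype averaged, Ppif at -0.0076 for genotype on CR had the other sign. With median centring, Opa1 at -0.0055 for CR in wildtype and -0.0090 for genotype averaged had the other sign. With quantile normalization, Opa1 at -0.010 for CR in wildtype, 0.017 for CR in knockout, 0.027 for the difference of the responses, 0.0035 for CR averaged and 0.039 for genotype on CR had the other sign. With the replicate block, Acss1 at -0.00038 for genotype averaged had the other sign. In fits without 1 array, the ranges of differences that changed sign were as follows. Idh2 ran from -0.31 to 0.067 for CR in wildtype, from -0.21 to 0.030 for CR in knockout, from -0.13 to 0.25 for the difference of the responses, from -0.18 to 0.0033 for CR averaged and from -0.040 to 0.33 for genotype on the control diet. Acss1 ran from -0.41 to 0.036 for CR in wildtype, from -0.016 to 0.21 for CR averaged and from -0.093 to 0.13 for genotype averaged. Aldh2 ran from -0.099 to 0.17 for CR in wildtype, from -0.26 to 0.0014 for the difference of the responses, from -0.098 to 0.034 for CR averaged and from -0.0097 to 0.063 for genotype on CR. Ppif ran from -0.052 to 0.081 for CR in wildtype, from -0.078 to 0.0039 for CR averaged and from -0.0076 to 0.13 for genotype on CR. Opa1 ran from -0.036 to 0.034 for CR in wildtype, from -0.066 to 0.040 for CR in knockout, from -0.069 to 0.037 for the difference of the responses, from -0.031 to 0.022 for CR averaged, from -0.042 to 0.064 for genotype on the control diet, from -0.040 to 0.041 for genotype on CR and from -0.024 to 0.029 for genotype averaged. Sod2 ran from -0.12 to 0.0086 for CR in knockout, from -0.015 to 0.11 for the difference of the responses and from -0.020 to 0.10 for genotype on the control diet. Glud1 ran from -0.0042 to 0.13 for CR in knockout and from -0.20 to 0.061 for genotype on the control diet.

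The count of correlated pairs was 7 with all arrays, 15 on deviations from group means and 0 without the 4 arrays, a fit with 11 arrays. The median of the other reported substrates for the genotypes on the control diet was 0.11, 0.14 without the 2 arrays and 0.09 without the 4.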

Other observations

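The spread between mice of a group differed with the group. Among the 7 genes, 4 (Sod2, Idh2, Acss1 and Aldh2) had their smallest SD in knockout mice on CR, as did 28.5% of all genes. The ratio of the SD in knockout CR to that in knockout control mice was 0.0818 for Idh2, lower than in all but 0.589% of genes, 0.173 for Acss1, 0.309 for Sod2, 0.408 for Glud1 and 0.409 for Aldh2. It was 0.555 for Ppif and 0.802 for Opa1. The median SD of all genes was 0.11 in knockout CR and 0.13 in knockout control mice, and knockout control replicate 1, one of the 2 germ cell arrays, is among the latter. With 4 mice a group these ratios are imprecise, and they were not tested.

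Markers of other cells of muscle moved less than those of germ cells, acinar cells and liver. The mean of 9 adipocyte markers, among them Lpl (9.96 to 11.02) and Slc2a4 (10.03 to 10.41), both of which muscle fibres also express, ranged from -0.35 to 0.12 in wildtype control, -0.38 to 0.82 in wildtype CR, -0.22 to 0.43 in knockout control and 0 to 1.01 in knockout CR mice, relative to the median array. The 10 macrophage and leukocyte markers, led by Lyz2 and Cd74, lay between -0.31 and 0.31 on all arrays, and the 8 endothelial markers, led by Cdh5 and Egfl7, between -0.14 and 0.15. The 8 tendon markers, led by Fmod and Thbs4, lay at 0.30 to 0.56 in wildtype control, -0.66 to 0.08 in wildtype CR, -0.26 to 0.12 in knockout control and -0.76 to 0 in knockout CR mice. The mean of 12 fast fibre genes lay at -0.14 to -0.07 in wildtype control, -0.04 to 0.07 in wildtype CR, -0.07 to 0.03 in knockout control and 0 to 0.05 in knockout CR mice. Of these 12, 4 passed the limma threshold as higher on CR averaged over the genotypes, as did 0.647% of all genes. The part of these cells and fibre types in the levels of the 7 genes was not tested.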
